A study of Vitis vinifera with 156 samples.

Results

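The 100 genes described here had a lower mean transcript level at constant 2 °C than at constant 7, 11 and 22 °C in dormant grapevine buds on days 7 to 20, while their levels at the 3 warmer temperatures lay close together. They were chosen from these measurements. The table of counts lists 42413 genes, of which 7201 had a mean of at least 10 CPM (counts per 1000000 counts of the library) over the libraries used for the choice. Of those, 2741 differed by less than 0.5 between their means at 7, 11 and 22 °C on the scale of log2(CPM + 1), and the 100 with the largest distance from the 2 °C mean up to the lowest of the other 3 means were taken. The choice used only days 7, 13 and 20 at these 4 constant temperatures. Constant 4 °C, the day before treatment, days 26 to 69 and the buds moved to a fluctuating temperature played no part in it. The results below use them. Those of day 0, of 4 °C on days 7 to 20 and of the change after day 20 set them against means that the choice used. The table pairs no line with a gene name, so each gene is named by its line number, counted from 1 after the header, and no function, position or sequence is given for any of them. Bud marker genes could not be looked up for the same reason.

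The material was buds of Vitis vinifera Cabernet Sauvignon, a wine grape, held on cuttings in growth chambers. A grapevine bud in endodormancy does not grow even when it is warm, and passes out of that state during prolonged chilling. In parallel, cold raises its freezing tolerance, which is called cold acclimation, with changes in the transcripts for membrane lipids, soluble sugars, protective proteins and hormone signalling. Low temperature above freezing thus acts on buds both as a signal that ends dormancy and as one that raises hardiness, and the chambers set temperatures across that range side by side.

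Buds were sampled once before treatment, on day 0, and then at constant 2, 4, 7 or 11 °C on days 7, 13 and 20 and, after that, on days 26, 34, 41, 55 and 69. Constant 22 °C was sampled on the same days up to day 55. Further buds were kept at constant 2, 7 or 11 °C until day 26, moved to a regime of 7 °C fluctuating by 5 °C to either side, and sampled on days 34, 41, 55 and 69. Each of the 52 groups had 3 libraries of 3′ end messenger RNA sequencing, and the labels do not say whether the 3 came from separate plants. The p-values therefore measure the spread between these libraries, which may be technical. In whole buds, fewer cells of a type and less RNA per cell cannot be told apart.

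Library totals ran from 27485 to 7138863 counts with a median of 2228888, and the 10 libraries under 500000 counts were left out. The labels divide the libraries into a First set of 86 and a Second set of 70. Day 0 and constant 2, 7 and 11 °C are all in the First set, constant 4 °C and every moved arm in the Second, and 22 °C changes from First to Second at day 26. A single library stood apart at ordinary depth. The third replicate of 7 °C on day 55 held 1945847 counts but had a count in only 9819 genes, against 12080 to 19938 in every other library used. Only 82 of the 100 genes had a count there, against at least 96 in each other library. Counts, medians and tests against 7 °C on days 26 to 69 that contain it are given with and without it, and the CPM ranges and the plots include it. The next lowest were the first replicates of 7 °C on day 7, with 12080 genes in 3213033 counts, and on day 55, with 12396 in 1352959. They had a count in 100 and 99 of the 100 genes. The day 7 library was used in the choice, and the day 55 library stayed in the fits without the third replicate of that day. At 4 °C on day 55, 2 of 3 libraries were low for the 100 genes, as described with the 4 °C results.

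The values that chose the genes are given as a description. The distance from 2 °C up to the lowest of the other means had a median of 0.95 and ran from 0.77 to 2.74 on the log2 scale, so that it exceeded 1 in 40 genes, 1.5 in 6 and 2 in 2 of them. Over all 2741 candidates its median was -0.17. Abundance was moderate, with a median of 25.8 CPM and a range of 10.2 to 1136 CPM. There were 46 genes under 20 CPM and 21 over 100 CPM. The last genes inside the limit were genes 13254, 22387 and 4334 at 0.78, 0.77 and 0.77, and the first outside were genes 33400, 40972 and 24730 at 0.77, 0.76 and 0.76, so the 100 genes are the top of a continuous order. Of those just outside, gene 40972 averaged 146747 CPM and alone can move the CPM of other genes. The 8 libraries of 2 °C were shallower than the others, with a median of 1173837 counts against 1873232 at 7 °C, 2457937 at 11 °C and 2378810 at 22 °C. The part of depth in the choice was not tested beyond a list remade from libraries of at least 1000000 counts. That minimum also removed every library of 2 °C on day 7, with 816780, 959256 and 985539 counts, so that list does not separate depth from day.

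**Figure D1:**
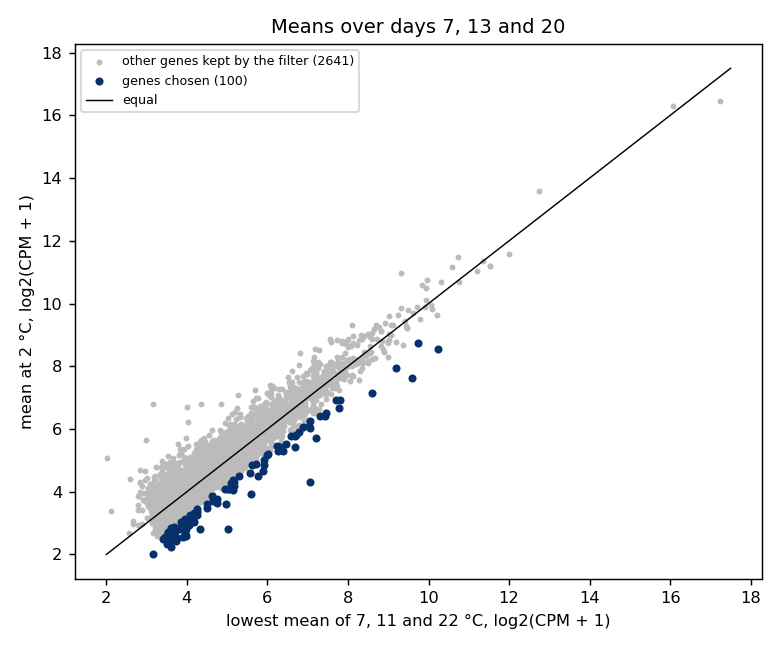
Mean log2(CPM + 1) of each of the 2741 candidate genes at constant 2 °C (vertical axis) against its lowest mean at 7, 11 or 22 °C (horizontal axis), days 7 to 20, with the 100 chosen genes in dark blue, the others in grey and the line of equality. The chosen genes lie below the line by 0.77 to 2.74 because the choice put them there.

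Gene 17749 had the largest distance, 2.74. Its lowest, median and highest values in the 8 libraries of 2 °C were 5.46, 22.9 and 44.4 CPM. They were 77.8, 140.8 and 332 CPM in the 8 libraries of 7 °C and 46.3, 92.7 and 844 CPM in the 9 of 22 °C. No 2 °C library reached any library of the 3 other temperatures for this gene. For gene 1410, the next in order, the 2 °C values were 1.72, 7.11 and 10.96 CPM and the 7 °C values 14.9, 34.7 and 54.3 CPM. Gene 10716, at high abundance, had 113.7, 167.2 and 402 CPM at 2 °C and 339, 863 and 1229 CPM at 7 °C, where the ranges overlapped. The most abundant of the 100 genes, gene 17933, had a median of 337 CPM at 2 °C and 1266 CPM at 7 °C. The other named genes of high distance, 19369, 6298, 12557, 1444, 28181 and 31538, had medians between 4.09 and 139.2 CPM at 2 °C. The 100 genes are scattered through the table from line 670 to line 42314, with no pair on adjacent lines and the closest pair 9 lines apart.

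Before treatment the 100 genes were not low. The mean log2(CPM + 1) over the 100 genes was 5.12, 5.15 and 6.01 in the 3 libraries of day 0. At constant 2 °C on days 7 to 20 it averaged 4.13 ± 0.16 (SD, n = 8), at 7 °C 5.26 ± 0.24 (n = 8), at 11 °C 5.37 ± 0.29 (n = 7) and at 22 °C 5.34 ± 0.32 (n = 9). Every 2 °C library lay below every library of day 0. All 100 genes were higher on day 0 than at 2 °C, by a median of 1.27. The same difference over the 2741 candidates had a median of 0.16. Set against 7, 11 and 22 °C, the day 0 mean lay above all 3 for 46 genes, within their range for 25 and between them and 2 °C for 29, where the candidates had 53.9%, 25.4% and 5.44% in these classes. Day 0 exceeded the mean of the 3 warmer temperatures by a median of 0.10 for the 100 genes and 0.18 for the candidates. The 2 °C values of this comparison were used in the choice, so no test is given.

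Constant 4 °C, only 2 °C warmer, had not been used, and there the mean over the genes lay between those of 2 °C and the warmer temperatures. It was 4.63 ± 0.26 (n = 9) on days 7 to 20. Gene by gene, the 4 °C mean was above the 2 °C mean in 82 of 100 genes and below it in 18, with a median difference of 0.48. Over the candidates the 4 °C level was below that of 2 °C, with a median difference of -0.44, and above it in 22.98%. The genes were chosen for low values in these same 2 °C libraries, which by itself favours a higher level at 4 °C. For 90 of the 100 genes the 4 °C mean lay under the lowest of 7, 11 and 22 °C, but so did 71.7% of the candidates, with median differences of -0.51 and -0.27. It lay between that lowest mean and 2 °C for 72 of the 100 genes and for 8.76% of the candidates. The choice gave the 100 genes an interval there of 0.77 or more, while the median distance of the candidates was -0.17. These shares are therefore unlike by the choice itself, and no test is given. Gene 17749 was an exception in size, with 40.9, 116 and 258 CPM at 4 °C, close to its 22 °C values. Gene 28882 was as low as at 2 °C, with medians of 4.86 CPM at 4 °C and 5.53 CPM at 2 °C. These libraries belong to different sets, and temperature and set cannot be told apart here.

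**Figure D2:**
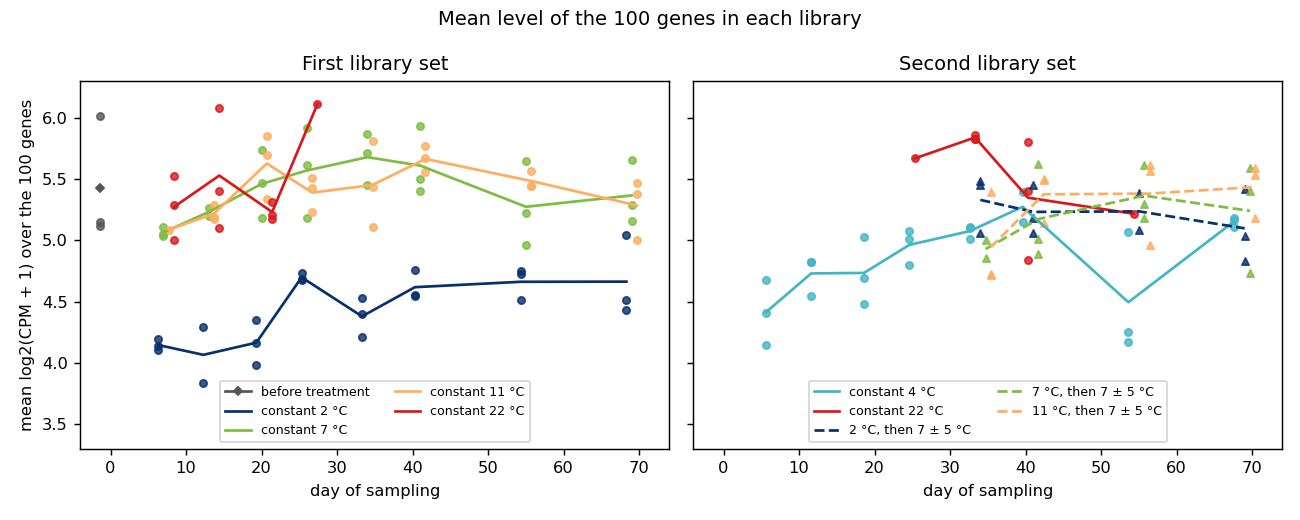
Mean log2(CPM + 1) over the 100 genes in each library of at least 500000 counts (points, shifted sideways to separate the arms) against day of sampling, with lines through the group means, the First library set on the left and the Second on the right. Constant 2 °C runs lowest in the First set from day 7 (mean 4.15) to day 69 (4.66), and in the Second set the arm moved from 2 °C stands at 5.33 on day 34 among the other moved arms.

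The difference persisted after the days used for the choice. On days 26 to 69 the mean over the 100 genes was 4.60 ± 0.19 at 2 °C (n = 15), 5.50 ± 0.30 at 7 °C (n = 15) and 5.46 ± 0.22 at 11 °C (n = 15), all in the First set and all from days outside the choice. The 7 °C mean was 5.54 ± 0.27 (n = 14) without the library that stood apart. At 2 °C, 64 of the 100 genes were lower than at 7 °C and 0 were higher, with an adjusted p under 0.05 in edgeR's quasi-likelihood test as the threshold. The same test called 12.6% of all 11566 genes lower and 12.6% higher. The median log2 fold change was -0.73 for the 100 genes and -0.02 for all genes, and 97 of the 100 estimates were below 0. Without the library that stood apart, 71 genes were lower and 0 higher, beside 14.7% and 14.1% of all genes, and the median was -0.78. Leaving out all libraries numbered replicate 1 left 29 genes lower, beside 3.45% of the 11566 genes. Leaving out replicate 2 left 40, beside 5.43%, and in both fits 0 of the 100 were higher. Depth was alike in these days, with a median of 2311357 counts at 2 °C and 2032263 at 7 °C.

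Against 11 °C, 72 genes were lower at 2 °C and 0 higher, beside 18.3% of all 11599 genes lower and 19.4% higher. Their median log2 fold change was again -0.73, against 0.01 for all genes. Both comparisons use the same 2 °C libraries, so one does not add an independent 2 °C measurement to the other. Between 7 and 11 °C, 93 of the 100 genes still differed by less than 0.5 on the log2(CPM + 1) scale on days 26 to 69, where 89.9% of the candidates did. By group means, 95 of the 100 genes were lowest at 2 °C among 2, 7 and 11 °C, where 52.1% of the candidates were. The distance had a median of 0.74 in these days, under the 0.95 of days 7 to 20, and 47 genes still reached the smallest distance the choice had admitted, against 6.38% of the candidates. These counts were 93, 97 and 52 genes without the library that stood apart, beside 92.2%, 54.5% and 6.97% of the candidates, and the median distance was 0.80.

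Day by day the 3 libraries of 2 °C all lay under the 3 of 7 °C for 46 of the 100 genes on day 26, 59 on day 34, 61 on day 41, 37 on day 55 and 29 on day 69. The same held for 9.93%, 23.8%, 18%, 7.4% and 13.6% of all genes on these days. On day 55 the count was 52 without the library that stood apart, beside 12.9% of all genes. Under 11 °C the counts were 47, 46, 55, 54 and 31 genes in the same order of days, beside 7.83%, 16.4%, 15.4%, 17% and 19.3% of all genes. The day 69 count is the smallest against either temperature. With the 5 days pooled, 3 genes kept 2 °C entirely below 7 °C (0.268% of all genes, and 3 genes beside 0.363% without the library that stood apart) and 2 entirely below 11 °C (0.726%), so single libraries of 2 °C reached into the other range for nearly every gene.

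**Figure D3:**
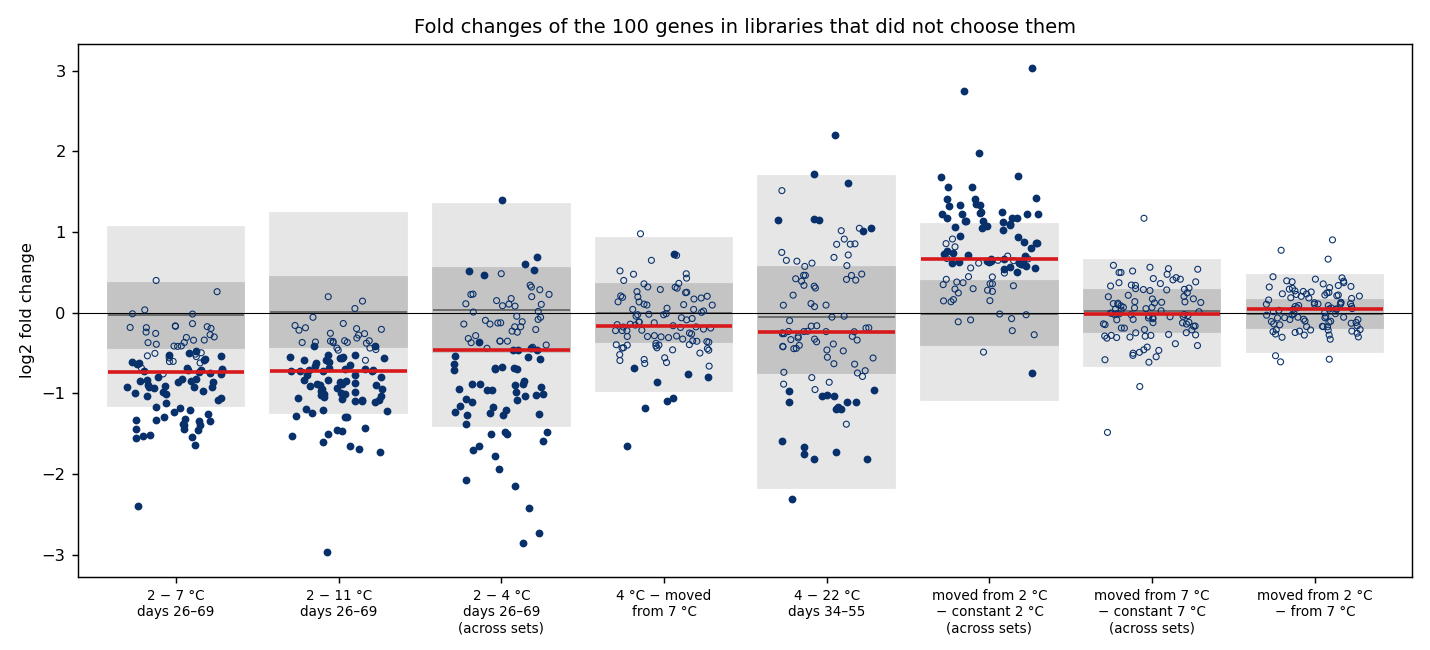
Log2 fold changes of the 100 genes in each comparison outside the choice (points; filled where the adjusted p was under 0.05), with their median (red line), the median of all genes tested (grey line) and the middle 50% and 90% of all genes (dark and light grey). The median of the 100 genes is -0.73 for 2 against 7 °C, 0.67 for the move from 2 °C and -0.01 for the move from 7 °C.

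Among the genes with the largest late difference from 7 °C, gene 31538 had 0, 2.03 and 10.4 CPM at 2 °C and 0, 16.7 and 30.02 CPM at 7 °C on days 26 to 69. The log2 fold change was -2.40 ± 0.49 (SE; adjusted p 0.000416), with the adjusted p at 0.075 without replicate 1. The 7 °C value of 0 was the library that stood apart, and without it the fold change was -2.51. Gene 3710 had 3.46, 8.06 and 17.1 CPM at 2 °C and 14.6, 32.5 and 51.9 CPM at 7 °C, with a log2 fold change of -1.64 ± 0.21 (SE; adjusted p 7.86e-07). These ranges overlapped only slightly. Gene 34776 differed by -1.55 ± 0.18 (SE; adjusted p 1.87e-07), from a median of 42.3 CPM at 2 °C to 122.97 CPM at 7 °C. The fold changes of genes 3710 and 34776 were -1.60 and -1.53 without the library that stood apart.

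Of the genes most lowered in the first days, gene 17749 was at 4.95, 20.7 and 80.4 CPM at 2 °C and 0, 99.3 and 276 CPM at 7 °C. Its log2 fold change was -1.55 ± 0.40 (SE; adjusted p 0.00467), but the adjusted p rose to 0.12 without replicate 1 and 0.18 without replicate 2. Gene 1444 had 31.4, 197 and 369 CPM at 2 °C and 262, 636 and 1128 CPM at 7 °C, a log2 fold change of -1.53 ± 0.25 (SE; adjusted p 3.13e-05). Genes 1410, 19369, 17933, 12557 and 28181 were lower too, by -1.51, -1.39, -1.44, -1.23 and -1.34 on the log2 scale. Gene 10716 was at the threshold with -0.57 ± 0.22 (SE; adjusted p 0.0498), and the adjusted p was 0.0501 without the library that stood apart. Its median at 2 °C was 841 CPM in these days, above the 167.2 CPM of days 7 to 20. Gene 6298 did not pass the test against 7 °C, at -0.61 ± 0.37 (SE; adjusted p 0.237), while against 11 °C it was lower by -0.99 ± 0.28 (SE; adjusted p 0.00525). Among the abundant genes, gene 37295 had 431, 574 and 752 CPM at 2 °C and 782, 1300.0 and 2248 CPM at 7 °C. These ranges did not overlap, and the log2 fold change was -0.92 ± 0.13 (SE; adjusted p 4.3e-06). Gene 35842 ran from 20.6 to 504 CPM at 2 °C and from 72.6 to 661 CPM at 7 °C, with a log2 fold change of -1.21 ± 0.32 (SE; adjusted p 0.00555). Without the library that stood apart the fold changes of genes 17749, 1444, 37295 and 35842 were -1.67, -1.49, -0.94 and -1.20, all past the threshold, and gene 6298 again missed it with an adjusted p of 0.063.

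**Figure D4:**
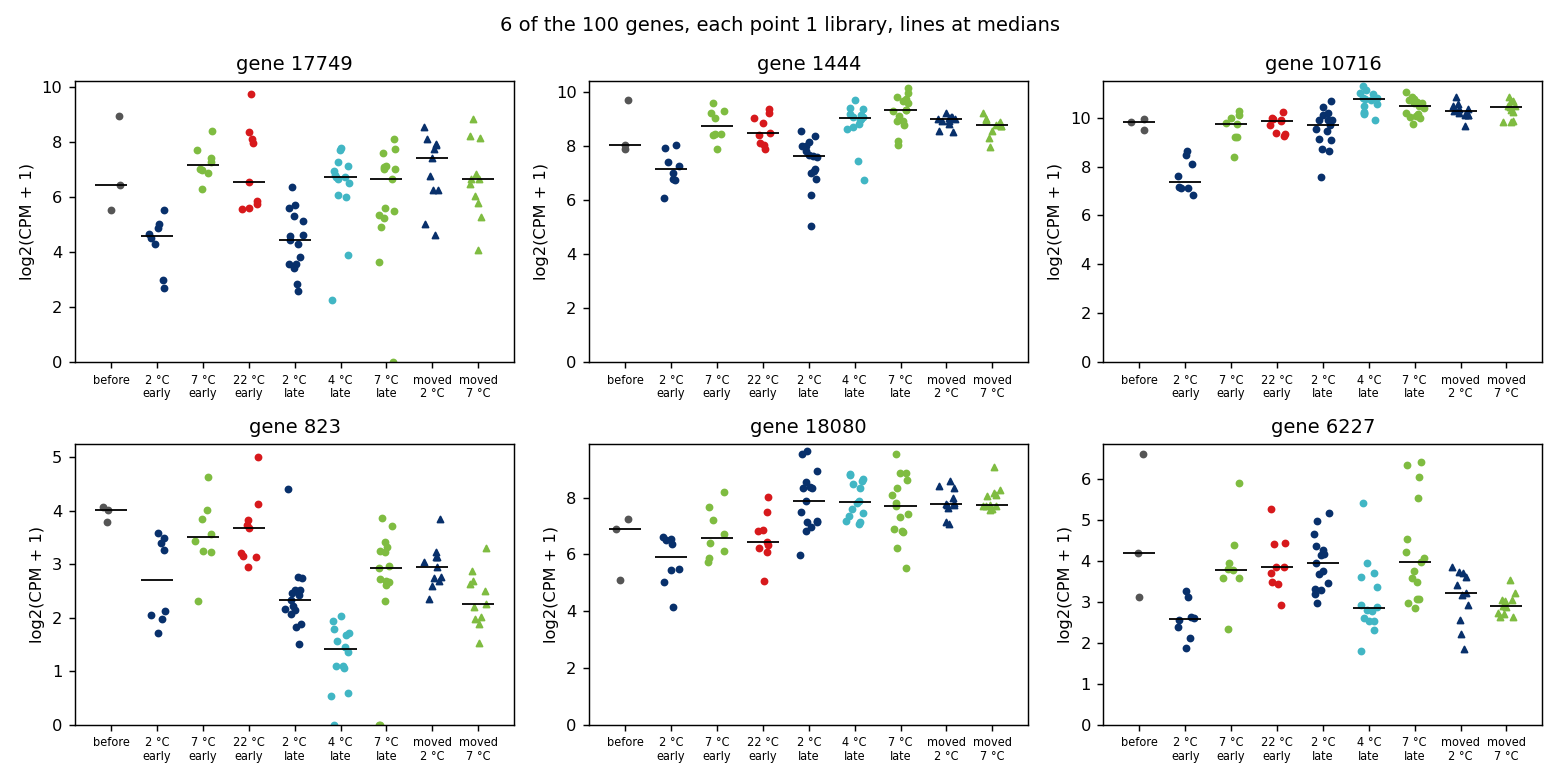
Log2(CPM + 1) of genes 17749, 1444, 10716, 823, 18080 and 6227, 1 point per library with a line at the median, on day 0, on days 7 to 20 (early) at 2, 7 and 22 °C, on days 26 to 69 (late) at 2, 4 and 7 °C and on days 34 to 69 after the moves from 2 and 7 °C. Genes 17749 and 1444 are lowest at 2 °C both early and late, gene 18080 has late medians of 236 CPM at 2 °C and 207 CPM at 7 °C, and gene 823 is lowest at 4 °C with a late median of 1.66 CPM.

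Split by abundance, of the 46 genes under 20 CPM, 23 were lower at 2 than at 7 °C, of the 33 between 20 and 100 CPM 25 were, and of the 21 over 100 CPM 16 were. The median log2 fold changes of these classes were -0.72, -0.74 and -0.72, and the median standard errors 0.28, 0.19 and 0.20. The medians lay close together, while the standard error was largest in the least abundant class. Of the 40 genes with a distance over 1 on days 7 to 20, 30 were lower late, and of the other 60, 34 were. Without the library that stood apart, 31, 25 and 15 genes of the 3 abundance classes were lower, with medians from -0.78 to -0.77, and 31 and 40 of the 2 classes by distance. The spread between replicates of the 100 genes was ordinary, with a median SD of 0.59 on the log2(CPM + 1) scale against 0.57 for all genes over the minimum abundance.

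Altogether 22 of the 100 genes passed the late test against neither 7 nor 11 °C, and 21 did without the library that stood apart. Gene 18080 was the clearest case of one whose low level at 2 °C was gone. It had 16.9, 62.6 and 97.8 CPM at 2 °C on days 7 to 20 and 61.4, 236 and 788 CPM on days 26 to 69, when the 7 °C values were 44.9, 207 and 739 CPM. The late ranges lay over each other, with a log2 fold change of 0.40 ± 0.24 (SE; adjusted p 0.237). Gene 6227 went from 2.64, 4.99 and 8.55 CPM to 6.82, 14.4 and 34.9 CPM at 2 °C and differed from 7 °C by -0.42 ± 0.33 (SE; adjusted p 0.374). For gene 823 and gene 33238 the late differences from 7 °C were -0.24 ± 0.35 (SE; adjusted p 0.653) and -0.34 ± 0.28 (SE; adjusted p 0.381), at late medians of 4.05 and 7.80 CPM at 2 °C. Gene 33238 without the library that stood apart was lower by -0.47 with an adjusted p of 0.047, while genes 18080, 6227 and 823 again missed the threshold.

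At 2 °C itself the level was higher after day 20 than before. From days 7 to 20 to days 26 to 69 the mean differed by a median of 0.47 at 2 °C, of 0.33 at 7 °C (0.30 without the library that stood apart) and of 0.13 at 11 °C over the chosen genes, and by -0.06, 0.12 and 0.09 over the candidates. The early 2 °C values are those used in the choice, so this is a description. Within days 26 to 69, a linear trend at 2 °C was called upward in 5 of the 99 genes tested and downward in 0, beside 0.336% and 0.267% of all 10116 genes, with a median slope of 0.07 log2 units per 10 days. The largest were gene 18080 at 0.59 ± 0.11 (SE; adjusted p 0.0212) per 10 days, gene 4586 at 0.48 ± 0.09 (SE; adjusted p 0.0236) and gene 4334 at 0.41 ± 0.07 (SE; adjusted p 0.00461). For gene 4334 the 3 libraries of 2 °C had 17.7, 18.99 and 19.8 CPM on day 26 and 37.5, 46.2 and 65.1 CPM on day 69. The day 69 values did not overlap those of day 26. Leaving out replicate 1 or replicate 2 left 0 of the 100 genes called, beside 0.0198% and 0% of the 10116 genes. Leaving out replicate 3 left 3, beside 0.494%. Set against the trend at 7 °C, 0 genes differed (0% of all genes in either direction), with 9 of the 100 at an unadjusted p under 0.05, beside 4.03% of all genes, and 0 of the 100 called by DESeq2. Without the library that stood apart 0 of the 100 were called and 11 had an unadjusted p under 0.05, beside 4.92% of all genes.

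At 4 °C the late level of the genes lay between those of 2 and 7 °C. Their mean on days 26 to 69 was 4.97 ± 0.35 (n = 14), above 2 °C (4.60) and below 7 °C (5.50). The 4 °C libraries are in the Second set and those of 2 and 7 °C in the First, so temperature and set cannot be told apart. The candidates were lower at 4 than at 7 °C as well. On day 34 their mean was 4.75, 4.91 and 4.97 at 4 °C, 5.28, 5.34 and 5.47 at 7 °C and 4.97, 5.07 and 5.35 at 2 °C. On day 34 the 4 °C libraries stood at 5.01, 5.10 and 5.11, and on day 69 at 5.11, 5.17 and 5.18. On day 55 they stood at 4.17, 4.25 and 5.07, and 2 of these 3 libraries were under the 2 °C mean of that day, 4.66. Counts of called genes in tests with 4 °C are given with and without day 55, while the mean of 4.97 includes it.

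Within the Second set, 4 °C can be compared with 22 °C on days 34, 41 and 55, in 8 against 7 libraries. Against 22 °C, 18 of the genes were lower at 4 °C and 8 higher by edgeR's quasi-likelihood test, beside 15.6% of all 11610 genes lower and 12.8% higher, with a median log2 fold change of -0.24 against -0.06. These counts lie near the shares of all genes, but they depended on the replicates. Without replicate 2 there were 14 lower and 20 higher, beside 15.4% and 11.8% of all genes, so more genes were then higher than lower. Without day 55 they were 14 lower and 8 higher, beside 14% and 10.9% of all genes. Without replicate 1 they were 7 lower and 3 higher, beside 5.92% and 4.96% of the 11610 genes. Without replicate 3 they were 9 lower and 3 higher, beside 7.65% and 6.02%. Of the 64 genes lower at 2 than at 7 °C in late days, 10 (15.6% of the 64, 55.6% of the 18) were lower at 4 than at 22 °C and 8 (12.5% of the 64, all of the 8) were higher, in libraries that the 2 comparisons do not share. The numbers were 12 and 7 of 71 genes without the library that stood apart.

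Gene 6298 showed the largest fall, from 3.15, 28.1 and 51.2 CPM at 22 °C to 0, 4.40 and 6.18 CPM at 4 °C, -2.31 ± 0.51 (SE; adjusted p 0.0031), although the adjusted p was 0.062 without replicate 1. Genes 823, 33238, 28882 and 35842 were lower by -1.82, -1.81, -1.75 and -1.73. Gene 823 missed the threshold without replicate 2 (adjusted p 0.097), and gene 35842 without replicate 1 (0.29) and in libraries of at least 1000000 counts (0.055). For 33238 the difference was -1.81 ± 0.31 (SE; adjusted p 0.000478), with 2.70, 3.80 and 11.8 CPM at 4 °C. In the other direction, gene 2112 had 10.5, 12.03 and 19.7 CPM at 4 °C and 1.17, 5.91 and 9.71 CPM at 22 °C, with no overlap and a log2 fold change of 2.21 ± 0.45 (SE; adjusted p 0.00153). Gene 10716 had 965, 1718 and 1983 CPM at 4 °C and 419, 537 and 1036 CPM at 22 °C, 1.72 ± 0.35 (SE; adjusted p 0.00161), and these ranges overlapped at their ends. Genes 1444, 2857 and 9051 were higher by 1.60, 1.17 and 1.15, each with an adjusted p over 0.05 without replicate 1 and, for 2857 and 9051, also without replicate 3. All of these genes had been chosen for a level at 2 °C below that at 22 °C, and in the late days at 4 °C they were found on both sides of 22 °C.

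A second comparison inside the Second set put constant 4 °C beside the buds moved from 7 °C to the fluctuating regime, on days 34 to 69 with 11 libraries each. There 8 genes were lower at 4 °C and 1 higher, beside 4.91% and 4.57% of all 10880 genes. Without day 55 the counts were 21 and 11, beside 19.9% and 17.6% of all genes, so in both forms the 100 genes stood near the share of all genes. Without replicate 1, 2 or 3 the total was 14, 4 and 0, beside 13.5%, 2.96% and 0% of the 10880 genes. In the last of these 0 genes of the whole table were called. Gene 823 had 0, 1.13 and 3.09 CPM at 4 °C against 1.89, 3.78 and 8.80 CPM in the moved buds, -1.66 ± 0.31 (SE; adjusted p 0.00217). In 8 of its 14 libraries of 4 °C from days 26 to 69 it had 3 counts or fewer. Gene 28882 was lower by -1.18 ± 0.29 (SE; adjusted p 0.0143) and gene 41894, whose ranges did not overlap (4.73 to 10.3 against 11.4 to 22.04 CPM), by -1.10 ± 0.17 (SE; adjusted p 0.000643). The single higher gene was gene 27255, with 93.7, 221 and 257 CPM at 4 °C, 0.73 ± 0.22 (SE; adjusted p 0.0382). Genes 28882 and 27255 missed the threshold without replicate 2 as well.

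Put directly beside each other across the sets, 2 °C was lower than 4 °C on days 26 to 69 for 54 genes and higher for 6, beside 23.6% and 24.7% of all 11239 genes. Their median log2 fold change was -0.47, and that of all genes 0.04. Without day 55 the counts were 53 and 4, beside 27.1% and 27.4% of all genes. Gene 27255 differed by -2.15 ± 0.20 (SE; adjusted p 2.98e-09), with 21.1 to 83.5 CPM at 2 °C against 93.7 to 257 CPM at 4 °C and no overlap. Gene 31538 differed by -2.86 and gene 17749 by -2.43. Among the 6 that were higher at 2 °C, gene 823 had the largest fold change, 1.40 ± 0.26 (SE; adjusted p 0.000103). Temperature and library set cannot be told apart in these values.

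When buds left 2 °C on day 26 for the fluctuating regime, the 100 genes were back near the level of the warmer arms at the first sampling, 8 days later. On day 34 the mean over the genes was 5.06, 5.45 and 5.48 in the moved buds and 4.21, 4.40 and 4.53 in those kept at 2 °C, with no overlap. Over days 34 to 69 it averaged 5.22 ± 0.22 (n = 11) after the move, where the buds moved from 7 °C had 5.20 ± 0.32 (n = 11) and those moved from 11 °C had 5.28 ± 0.33 (n = 12). In all, 62 of the 100 genes were higher in the buds moved from 2 °C than in those kept there and 1 was lower, beside 12.8% of all 11045 genes higher and 13.9% lower. The median log2 fold change was 0.67 against -0.01, with 91 estimates above 0. This comparison runs across the library sets and shares its constant 2 °C libraries with the late comparisons above.

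The move from 7 °C runs across the same sets. There 0 of the 100 genes passed the test in either direction (0% of all 11017 genes), with 12 of the 100 and 11.2% of all genes at an unadjusted p under 0.05 and 3 of the 100 called by DESeq2. The median log2 fold change was -0.01. Without the library that stood apart it was 0.01, again with 0 of the 100 called (0.0364% of all genes lower, 0.0727% higher) and 9 at an unadjusted p under 0.05, beside 12.5% of all genes. The effect of the move from 2 °C minus that of the move from 7 °C, which a shift common to a set does not touch, was tested as an interaction. It was positive in 29 genes and negative in 0, beside 2.76% and 3.14% of all 11608 genes, with a median of 0.75 against -0.01 and 96 of 100 estimates above 0. Without the library that stood apart 34 genes were called, beside 3.75% of all genes. Without replicate 1, 2 or 3 the count was 6, 4 and 8, beside 0.689%, 0.405% and 0.672% of the 11608 genes. With the shallow libraries kept it was 18, beside 2.16%. The interaction shares its constant 2 and 7 °C libraries with the late comparison of 2 and 7 °C above.

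Gene 17749 rose most after the move from 2 °C. It had 4.95, 15.8 and 47.4 CPM in buds kept at 2 °C and 23.5, 167.2 and 367 CPM in the moved buds, a log2 fold change of 3.03 ± 0.38 (SE; adjusted p 1.96e-06). Gene 31538 had 0, 1.63 and 10.4 CPM and 3.40, 13.9 and 35.8 CPM, 2.75 ± 0.51 (SE; adjusted p 0.000248). The ranges of both overlapped. Genes 1410, 6420 and 28882 rose by 1.98 ± 0.32 (SE; adjusted p 5.5e-05), 1.69 ± 0.47 (SE; adjusted p 0.00878) and 1.69 ± 0.23 (SE; adjusted p 6.25e-06), and for gene 6420 the adjusted p was 0.05002 without replicate 1. The difference between the moves was 2.37 ± 0.72 (SE; adjusted p 0.0393) for gene 31538, 1.79 ± 0.33 (SE; adjusted p 0.000381) for gene 1444 and 1.39 ± 0.30 (SE; adjusted p 0.00294) for gene 19369. For gene 17749 it was 1.79 ± 0.70 (SE; adjusted p 0.116), and 2.03 with an adjusted p of 0.036 without the library that stood apart, where genes 31538, 1444 and 19369 had 2.60, 1.76 and 1.36. Gene 1444 shows the pattern at high abundance, with 31.4, 165.9 and 369 CPM when kept at 2 °C, 368, 509.6 and 586 CPM after the move from 2 °C, 262, 633 and 1128 CPM when kept at 7 °C and 250.2, 431 and 599.6 CPM after the move from 7 °C. Its values after the 2 moves covered the same range. Gene 6227 was the one that fell, from 8.10, 13.4 and 30.1 to 2.56, 8.19 and 13.4 CPM, -0.75 ± 0.24 (SE; adjusted p 0.0234). It missed the threshold when any of the 3 replicates was left out. After the move from 7 °C its log2 fold change was -1.49 ± 0.39 (SE; adjusted p 0.145).

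Day by day, all libraries kept at 2 °C lay under all libraries moved from 2 °C for 49 of the 100 genes on day 34, 36 on day 41, 47 on day 55, where the moved arm had 2 libraries, and 24 on day 69, beside 12.9%, 7.56%, 9.75% and 9.43% of all genes. With the 4 days pooled the count was 4, beside 0.38% of all genes. The difference of means had a median over the 100 genes of -0.91 on day 34, -0.59 on day 41, -0.54 on day 55 and -0.45 on day 69, so it was largest at the first sampling.

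Once in the fluctuating regime, the buds from 2 °C and from 7 °C were compared within the Second set, with 11 libraries each. Of the genes 0 were lower and 0 higher, beside 0.00927% and 0.0185% of all 10790 genes. There were 6 at an unadjusted p under 0.05, beside 6.95% of all genes, and DESeq2 also called 0 of the 100. The median log2 fold change was 0.05, with quartiles of -0.13 and 0.22. The smallest adjusted p among the 100 genes was 0.36, so a remaining difference was not detectable in these libraries. The difference of means between these arms on the log2(CPM + 1) scale had a median of 0.01 over the 100 genes and ran from -0.69 to 0.70, whereas between the buds kept at 2 and 7 °C over the same days it had a median of -0.83 and was below 0 in 97 genes. Leaving out the library that stood apart made that median -0.91, with 99 genes below 0.

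**Figure D5:**
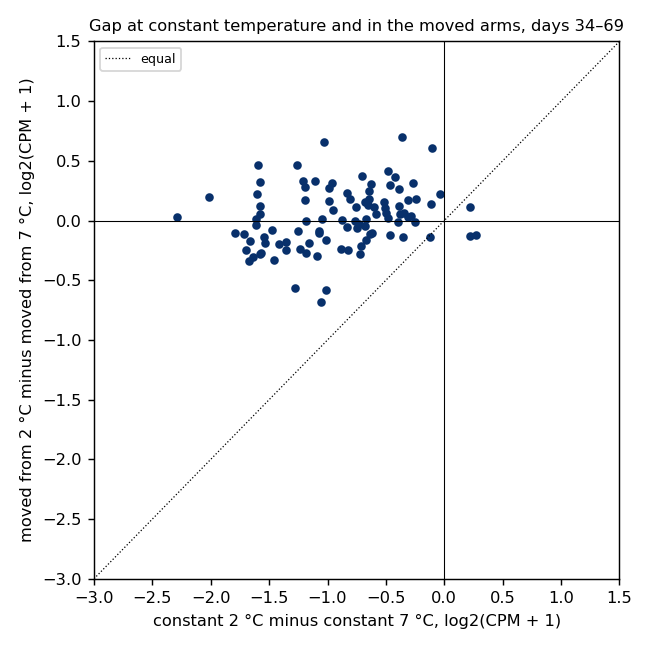
For each of the 100 genes, the difference of means on the log2(CPM + 1) scale between buds kept at 2 °C and at 7 °C (horizontal axis) and between buds moved from 2 °C and from 7 °C (vertical axis), days 34 to 69, with a dotted line of equality. The points spread to the left along the horizontal axis, with a median of -0.83, and lie around 0 on the vertical one, with a median of 0.01.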

How the data were processed

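RNA of 156 bud libraries was measured by 3′ end messenger RNA sequencing, which reads transcripts close to the 3′ end, per the labels' protocols. Whole-number counts per gene, not normalized by the authors, make up the deposited table. FastQC, STAR and DESeq2 are named in the submitters' processing notes without versions. The genome build, the annotation and the counting tool are not given in the sources used here, so genes that share reads with close copies are uncertain. Each column of the table belongs to 1 library of the labels, with 0 columns unused.

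Groups came from the labels. Libraries under 500000 counts were left out. CPM is the count per 1000000 counts of the library, and log2(CPM + 1) was used for the choice of genes and for levels. The 100 genes, the comparisons and the rule for named genes were chosen with earlier results of these data known. Named are the 10 genes with the largest distance at 2 °C, the 5 most abundant, the 5 largest called changes in each direction for 2 against 7 °C, 4 against 22 °C and the move from 2 °C, the 3 largest in each direction for 4 °C against the arm moved from 7 °C, for the trend at 2 °C and for the moved arms against each other, and the genes on either side of the limit. The few gene values given outside that rule, for single genes within another comparison, were picked after the values had been seen.

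Counts were tested over all genes in R 4.3.3 by the two-sided quasi-likelihood test of edgeR 4.0.16 (glmQLFTest) after filterByExpr and TMM scaling. Day was a factor except in the trends. Adjusted p-values are Benjamini-Hochberg values over every gene tested. Fold changes are on the log2 scale, and standard errors are the fold change divided by the square root of the F statistic. The fits were tested on simulated counts. A log2 change of 1 was called in 48% of the changed genes for 2 against 7 °C and in 5% for 4 against 22 °C. For the trend at 2 °C, with the change spread over all its days, it was called in 6%. The shares for a change of 2 were 92%, 68% and 56%. In the simulation the comparisons thus differed in power. It changed 100 genes at each size, drawn at random from all genes tested. For 2 against 7 °C and 4 against 22 °C it called 147 and 75 genes in all, far fewer than the data gave. The shares are therefore no measure of the power for the 100 genes. Alternatives were DESeq2 1.42.0, RLE scaling, no filter on low counts, all libraries, libraries of at least 1000000 counts, the replicate number as a block, and leaving out each replicate. Fits without day 55 and without the third replicate of 7 °C on day 55 were added after seeing the data. Same-numbered libraries did not deviate together in every pair, with mean correlations from -0.198 to 0.257 over the comparisons, so the number was not used as a pairing. Depth limits the precision: 3 counts are 5.8 CPM in the shallowest library of constant 11 °C in days 26 to 69 and 3.67 CPM in that of 2 °C in days 7 to 20.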

Additional observations from a re-analysis of the deposited data

Results flagged for a closer look

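On days 7 to 20, gene 28181 had 59.4 CPM in the third replicate of 11 °C on day 20, against 9.37 to 18.7 CPM in the other 6 libraries of that temperature. The same gene had 40.1 CPM in the first replicate of 22 °C on day 13, against 11.0 to 15.4 CPM in the other 8 libraries. That library also stood high for the 100 genes together, with a mean log2(CPM + 1) of 6.08 against 5.00 to 5.52 in the others of 22 °C. These 3 values lay farther from their neighbours than Dixon's 95% limit allows, out of 55 sets of libraries examined, and chance alone gives about 1 in 20. All 3 lie at temperatures above 2 °C and in days used for the choice of the genes.

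The effect of the move to the fluctuating regime differed between the buds from 2 °C and those from 7 °C in 29 of the 100 genes, by an interaction term in edgeR's quasi-likelihood test. In all 29 the change with the move was more positive from 2 °C than from 7 °C, beside 2.76% of all genes, and 3.14% the other way. The term is a difference of changes, and its constant 2 and 7 °C libraries also served the late comparison. Between the moved arms themselves 0 of the 100 genes were called. The count was 6, 4 and 8 without replicate 1, 2 or 3, beside 0.689%, 0.405% and 0.672% of the 11608 genes.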

How the results depend on the processing

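The list itself depended on the libraries. Of the 100 genes, 85 were also chosen with TMM effective library sizes, 93 with a pseudocount of 0.1, 83 with means of day means, 65 from libraries of at least 1000000 counts, and 60 to 65 when a replicate was left out. Whichever of these lists was used, 54 to 72 of its 100 genes were lower late at 2 than at 7 °C and 0 higher, and 55 to 72 were higher after the move from 2 °C.

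With DESeq2 the members called were 14 instead of 9 for 4 °C against the arm moved from 7 °C, 3 instead of 0 for the move from 7 °C and 9 instead of 5 for the trend at 2 °C. Calls over all genes are given in percent of the number of genes tested under the settings used here. With DESeq2 they were 16.3% instead of 9.48%, 1.37% instead of 0% and 2.30% instead of 0.603% in these comparisons, 8.99% instead of 5.90% for the difference between the moves, 0.361% instead of 0.0278% between the moved arms and 0.0865% instead of 0% for the difference of trends. Without the filter on low counts, 2 members and 1.08% of all genes were called for the move from 7 °C, 0.491% between the moved arms and 0.00865% for the difference of trends. With all libraries, 18 members and 4.79% of all genes were called for the difference between the moves, and 0.00927% of all genes between the moved arms. Without day 55, 32 members and 36.5% of all genes were called for 4 °C against the arm moved from 7 °C. Where the cause is not in the construction of the alternative, it was not tested.

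Leaving out a replicate, or the third of 7 °C on day 55 alone, gave these ranges, fewer libraries being tested. Members called were 29 to 71 for 2 against 7 °C, with 7.89% to 29.7% of all genes, and over all genes 22.6% to 32.05% for 2 against 11 °C. For 4 against 22 °C they were 10 to 34 members and 10.9% to 28.9% of all genes, and for 4 °C against the arm moved from 7 °C 0 to 14 members and 0% to 13.5%. All genes called ran from 29.5% to 39.5% for 2 against 4 °C, from 14.8% to 15.9% for the move from 2 °C and were 0% in each case between the moved arms. The difference between the moves gave 4 to 34 members and 0.758% to 7.67% of all genes, and the trend at 2 °C 0 to 3 members and 0% to 0.494%. For the move from 7 °C the range was 0% to 0.109% of all genes, the last without the third replicate of 7 °C on day 55.

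With replicate number as the block, 64, 70, 35, 8, 58, 60, 0, 31, 0 and 0 members were called for 2 against 7 °C, 2 against 11 °C, 4 against 22 °C, 4 °C against the arm moved from 7 °C, 2 against 4 °C, the move from 2 °C, the move from 7 °C, the difference between the moves, the moved arms and the difference of trends. For the trend at 2 °C the block gave 3 members and 0.188% of all genes, and between the moved arms 0.00927%. Apart from the trend and the moved arms, the counts with the block stand without the share of all genes. They therefore do not show by themselves whether the 100 genes differed from all genes. Under the settings used here, 4 against 22 °C gave counts near the shares of all genes. So did 4 °C against the arm moved from 7 °C. The replicate numbers do not mark a stated pairing. Of 269 alternative values for the 28 calls of named genes, 240 stayed past the threshold, 29 did not and 0 changed direction. Depth limits the least abundant genes most, as 46 of the 100 average under 20 CPM.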

Other observations

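The buds moved from 11 °C entered no test. On day 34 the mean log2(CPM + 1) over the 100 genes was 4.72, 4.72 and 5.39 in these buds, under the 5.11, 5.44 and 5.81 of constant 11 °C in 2 of 3 libraries, and on day 69 it was 5.18, 5.53 and 5.59. The mean over the candidates on day 34 was 4.72, 4.85 and 4.94 in the moved buds and 5.22, 5.27 and 5.49 at constant 11 °C. These arms are in different library sets, so the move and the set cannot be told apart. At constant 22 °C the 3 libraries of day 34 lay at 5.83, 5.83 and 5.86, and those of day 41 at 4.84, 5.40 and 5.80. Of the 100 genes, 23 were chosen under the settings used here and under all 7 alternative ways of making the list.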
